A study of Mus musculus with 18 samples.

Results

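Epididymal white adipose tissue (eWAT) and inguinal white adipose tissue (iWAT) of the same diet-induced obese wildtype state were compared with each other. The comparison used 6 of the 18 libraries of the series, namely 3 eWAT and 3 iWAT libraries of WT mice, chosen by depot and genotype in the sample labels. No caspase-6 knockout library and no brown fat library entered. Both groups were WT males on a C57BL/6J background, obtained by crossing mice heterozygous for the germline Casp6 deletion, and both ate a high fat diet (HFD) with 60% of its calories from fat for 12 weeks, starting at 10 to 14 weeks of age. The groups therefore share genotype, sex, diet and age range and differ by depot. No lean control stands beside them, so that every difference below is one between 2 obese depots. The labels number the libraries 1 to 3 in each depot and do not tie a number to an animal, and the p-values below measure the spread between these libraries only. The depots were deposited as 2 separate tables, and a difference in dissection or in library preparation between depots cannot be told apart from the depot. Of 25124 genes in the tables, 23344 were kept, after 51 chrY genes and 1729 genes for which the transcript counted differed between the 2 tables were left out. Of these, 13901 had enough counts to be tested.

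eWAT is a visceral depot. It lies around the epididymis, faces the abdominal cavity, and carries a sheet of mesothelium on its surface. iWAT is subcutaneous, lies at the base of the hindlimb, and is the white depot of the mouse in which thermogenic adipocytes appear most readily in the cold. The depots arise from different mesoderm, and their cells keep a record of body position in transcription factor genes, above all the Hox genes, whose order along each cluster follows their order of expression from head to tail. In obesity, eWAT is the depot known for macrophages that gather around dying adipocytes, whereas iWAT tends to expand with less inflammation. ATGL, encoded by Pnpla2, starts lipolysis by cutting the first fatty acid from triglyceride, and is the enzyme the study of caspase-6 turned on.

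The libraries held 16506034 to 18003880 counts. They separated by depot, with Pearson correlations of log2 CPM (counts brought to 1 scale over libraries with the trimmed mean of M values) of 0.9802 to 0.9838 within eWAT, 0.9779 to 0.9811 within iWAT and 0.9016 to 0.9237 between depots. The first principal component held 74.42% of the variance, with eWAT at 50.15, 61.24 and 54.05 and iWAT at -56.69, -53.72 and -55.04. The labelled tissue was checked against its markers. All 25 adipocyte identity genes tested had counts in both depots, and their summed level was 34620 to 38420 CPM in eWAT and 72120 to 74770 CPM in iWAT. Among 16 epididymis and testis genes, 12 had 0 counts in all 6 libraries, and the sum of the list did not pass 0.656 CPM in any library. Liver genes summed to 12.7 to 23.9 CPM in 5 libraries and to 76.8 CPM in iWAT replicate 3. Genes of keratinocytes and mammary epithelium summed to 10.2 to 18.1 CPM. Scd1, the stearoyl-CoA desaturase, took 3.90 to 4.28% of all counts in iWAT and 1.09 to 1.44% in eWAT.

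The 250 bases in front of the start site of some of the genes on which the comparison turns are printed first, because many of the genes that follow are read in one depot and nearly silent in the other. The sequences come from RefSeq on GRCm38.p6, the patch release of the mm10 assembly that the authors used, and are written 5′ to 3′ on the strand of the gene. Capitals mark the letters GGGCGG or its reverse complement CCGCCC (the GC box), AGGTCA or TGACCT (a nuclear receptor half-site), and TATAAA or TTTATA. Upk3b and Bnc1 represent genes read in eWAT alone, Hoxa10 and Shox2 represent genes read nearly in iWAT alone, and Pnpla2 is the ATGL gene.
Upk3b, chr5:136038246-136038495, plus strand: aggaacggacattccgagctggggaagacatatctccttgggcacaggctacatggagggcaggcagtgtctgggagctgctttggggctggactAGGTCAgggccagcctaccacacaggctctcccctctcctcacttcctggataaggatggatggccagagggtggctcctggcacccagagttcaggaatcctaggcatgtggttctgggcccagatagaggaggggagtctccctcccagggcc
Bnc1, chr7:81992300-81992549, minus strand: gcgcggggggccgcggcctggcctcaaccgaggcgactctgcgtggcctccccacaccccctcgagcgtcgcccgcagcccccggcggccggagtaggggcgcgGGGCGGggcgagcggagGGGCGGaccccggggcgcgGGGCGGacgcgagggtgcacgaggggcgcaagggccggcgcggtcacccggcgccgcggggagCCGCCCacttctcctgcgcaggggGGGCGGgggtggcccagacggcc
Hoxa10, chr6:52234940-52235189, minus strand: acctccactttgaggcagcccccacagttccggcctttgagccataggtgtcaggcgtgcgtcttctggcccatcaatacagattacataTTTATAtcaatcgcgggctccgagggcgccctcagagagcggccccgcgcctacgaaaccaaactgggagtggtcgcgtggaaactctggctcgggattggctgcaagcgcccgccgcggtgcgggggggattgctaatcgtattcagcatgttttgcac
Shox2, chr3:66981772-66982021, minus strand: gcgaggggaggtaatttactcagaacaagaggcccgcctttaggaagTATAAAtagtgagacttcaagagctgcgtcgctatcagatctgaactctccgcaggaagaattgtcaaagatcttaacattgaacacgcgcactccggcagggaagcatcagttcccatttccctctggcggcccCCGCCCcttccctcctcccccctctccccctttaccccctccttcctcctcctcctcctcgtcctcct
Pnpla2, chr7:141454938-141455187, plus strand: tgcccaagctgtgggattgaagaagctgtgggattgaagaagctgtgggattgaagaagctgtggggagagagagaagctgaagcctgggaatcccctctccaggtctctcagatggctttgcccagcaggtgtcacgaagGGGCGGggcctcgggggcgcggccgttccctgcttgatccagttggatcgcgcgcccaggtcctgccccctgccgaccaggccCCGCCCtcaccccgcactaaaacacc

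The 5 windows differ in their CG dinucleotides, of which Upk3b has 2, Shox2 has 11, Pnpla2 has 12, Hoxa10 has 20 and Bnc1 has 39. Over 32851 windows of the same length the median was 6, and over the windows of 10298 tested genes it was 16. A GC box occurred in 32.7% of all windows and in 58.9% of those of tested genes. It occurred 5 times in the Bnc1 window, 2 times in the Pnpla2 window and 1 time in the Shox2 window. The half-site, found in 14% of all windows and 10.5% of those of tested genes, occurred 1 time, in the Upk3b window. TATAAA on either strand, found in 12.4% of all windows and 6.6% of those of tested genes, occurred 1 time each in the Hoxa10 and Shox2 windows. These matches describe letters, and no binding was measured.

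A gene was called at an adjusted p below 0.05 in edgeR's quasi-likelihood test if its fold change was also estimated at 1.5 or more in either direction. Of the 13901 genes tested, 2360 (17.0%) were higher in eWAT and 2203 (15.8%) were lower, which together is 32.8% of the genes. The median log2 fold change over all genes tested, eWAT minus iWAT, was 0.015. The 3 libraries of one depot lay entirely above the 3 of the other for 30.8% of the genes with eWAT higher and for 29.7% with eWAT lower. Every list below is read beside these shares. Scaled by total counts instead, the median of all genes moved up by 0.139 on the log2 scale, 2970 genes were higher and 1705 lower in eWAT, and the share of calls that were higher was 63.5% in place of 51.7%.

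**Figure D1:**
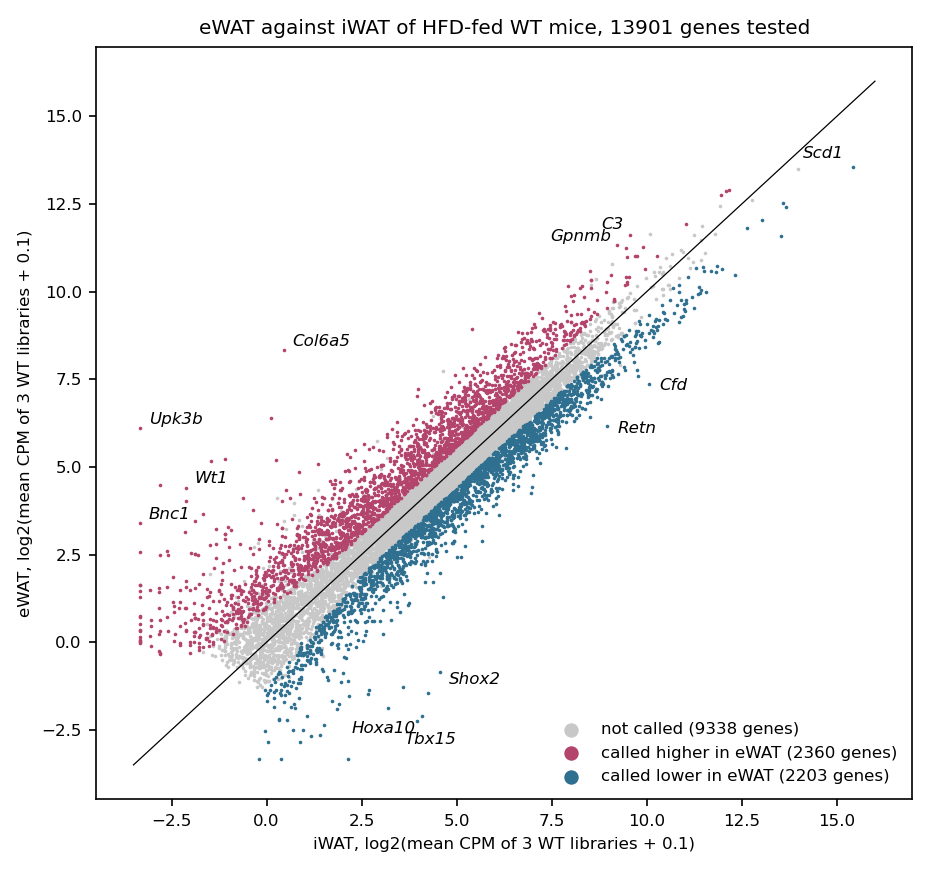
Mean level of each of the 13901 genes tested in iWAT (horizontal) and eWAT (vertical), both as log2(mean CPM of 3 WT libraries + 0.1), with the 2360 genes called higher and the 2203 called lower in eWAT in colour and the line of equal levels in black. Upk3b and Bnc1 lie at the left edge, at 0 counts in iWAT, and Hoxa10, Tbx15 and Shox2 lie far below the line.

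Mesothelial genes and transcription factors of development led the increases in eWAT. Of the 10 genes with the largest increases, 8 had no count in any iWAT library, so that their fold changes are lower bounds against a floor of 3 counts over the group. Upk3b (chr5:136038496-136044993, plus strand), which encodes a uroplakin of the mesothelial surface, had 1308, 1423 and 858 counts in eWAT and 0, 0 and 0 counts in iWAT, which is at least 1070-fold higher in eWAT. Bnc1 (chr7:81966662-81992299, minus strand), a zinc finger transcription factor, had 205, 213 and 127 counts in eWAT and 0, 0 and 0 counts in iWAT, at least 163-fold higher. All eWAT libraries were far above all iWAT libraries for both genes. That the depots do not overlap was a condition for entering the 10 largest increases and the 10 largest decreases. Tcf21 (chr10:22817276-22820143), a basic helix-loop-helix factor of visceral mesenchyme, had 73, 116 and 119 counts in eWAT and 0, 0 and 0 counts in iWAT, at least 92.2-fold higher. Upk1b, a second uroplakin, had 461, 472 and 240 counts in eWAT and 0, 1 and 1 counts in iWAT, a ratio of 527 with a 95% counting interval of 146 to 4360. Chst4, a sulfotransferase known from high endothelial venules, was at least 47.0-fold higher, and Cgn, the tight junction protein cingulin, at least 41.3-fold. Gata5, Isl1 and Kcnh3 were at least 36.5-fold, 24.3-fold and 24.6-fold higher. Gata5 and Kcnh3 overlap Gata5os and Mcrs1 on the opposite strand, and since no source states the strandedness of the libraries, their reads cannot be told from those of these partners. Col6a5, a chain of collagen VI, was read in both depots. It had 278, 404 and 282 CPM in eWAT and 1.302, 0.842 and 1.66 CPM in iWAT, an estimated 251-fold difference (log2 fold change 7.97, SE 0.25, adjusted p = 1.59e-07).

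Mesothelial genes as a list were higher in eWAT. Of 17 written, 16 were tested, 15 were called higher and 1 lower, and the median log2 fold change was 5.31. Msln, the mesothelial surface protein mesothelin, had 51.4, 38.7 and 21.3 CPM in eWAT and 0.846, 0.0647 and 0.185 CPM in iWAT (log2 fold change 6.65, SE 0.67, adjusted p = 5.00e-04). The eWAT libraries differed from each other for this gene, but each was far above every iWAT library. Lrrn4 had 43.6, 40.8 and 24.7 CPM in eWAT and 0.976, 0.906 and 1.35 CPM in iWAT. Wt1, the Wilms tumour factor of mesothelium and visceral fat progenitors, had 18.8, 25.5 and 19.1 CPM in eWAT and 0.195, 0.194 and 0 CPM in iWAT (log2 fold change 7.29, SE 0.39, adjusted p = 2.60e-07). Krt19, a keratin of simple epithelia, had 10.1, 13.7 and 7.29 CPM in eWAT and 1.17, 0.453 and 0.8 CPM in iWAT, and Krt8 had 150 counts over eWAT and 3 over iWAT, a ratio of 44.9 with a counting interval of 15.1 to 220. Aldh1a2, which makes retinoic acid and is also expressed outside mesothelium, showed the smallest increase of the list (log2 fold change 2.45, SE 0.17, adjusted p = 9.20e-07). The exception was Cldn15, a claudin, at 61.5, 51.02 and 46.1 CPM in eWAT and 138, 114 and 142 CPM in iWAT. It made up most of the summed level of the list in iWAT, which was 124 to 153 CPM there and 290 to 463 CPM in eWAT. In bulk tissue, fewer cells of a type and less RNA per cell cannot be told apart, here or below.

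**Figure D2:**
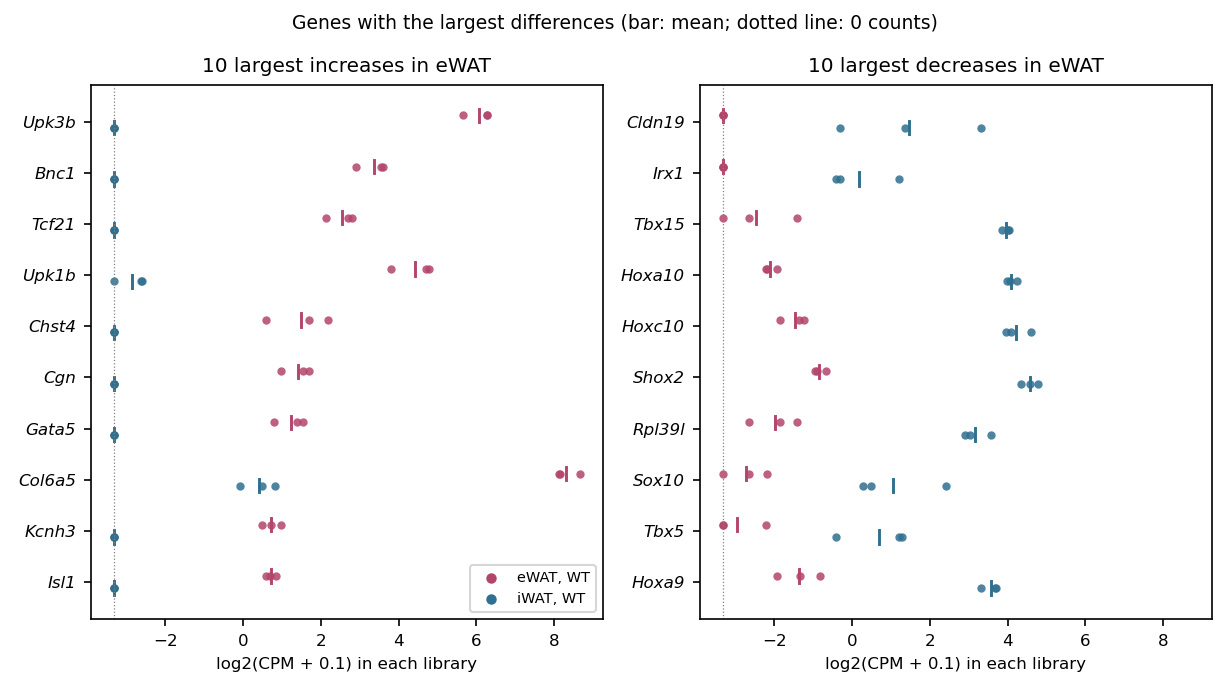
Level of the 10 genes with the largest increases (left) and the 10 with the largest decreases (right) in eWAT, as log2(CPM + 0.1) in each of the 6 WT libraries, with a bar at each group's mean and a dotted line at 0 counts. The genes were chosen among those in which the 2 depots do not overlap. The iWAT libraries of Cldn19 and Sox10 are spread more widely than those of Hoxa10 or Tbx15.

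The largest decreases in eWAT, that is the genes found in iWAT and almost absent from eWAT, included several factors of limb and body wall position. Tbx15 (chr3:99253760-99354260), a T-box factor of subcutaneous fat and skin, had 244, 221 and 263 counts in iWAT and 0, 5 and 1 counts in eWAT (log2 fold change -6.99, SE 0.44, adjusted p = 6.15e-07). Hoxa10 (chr6:52231197-52234939) had 287, 245 and 268 counts in iWAT and 2, 3 and 2 counts in eWAT (log2 fold change -6.91, SE 0.27, adjusted p = 9.36e-08), and Hoxc10 (chr15:102966796-102971897) had 236, 375 and 273 counts in iWAT and 3, 6 and 5 counts in eWAT (log2 fold change -6.099, SE 0.30, adjusted p = 1.83e-07). All 3 genes were thus plainly read in every iWAT library and close to 0 in every eWAT library. Shox2 (chr3:66971723-66981771), a homeobox factor of the proximal limb, had 20.2, 23.6 and 27.3 CPM in iWAT and 0.413, 0.437 and 0.525 CPM in eWAT (log2 fold change -5.67, SE 0.22, adjusted p = 9.36e-08), and Hoxa9 had 9.89, 13.01 and 12.7 CPM in iWAT and 0.295, 0.164 and 0.467 CPM in eWAT. Irx1 had 0, 0 and 0 counts in eWAT and 10, 11 and 36 counts in iWAT, at least 21.1-fold higher in iWAT. Tbx5, the T-box factor of forelimb and heart, had 82 counts over iWAT and 2 over eWAT, a ratio of 45.6 with a counting interval of 12.2 to 383. Cldn19, which had the largest estimate of the 10, and Sox10 are genes of Schwann cells, and Rpl39l was the remaining gene. Cldn19 had 0, 0 and 0 counts in eWAT and 151, 11 and 40 counts in iWAT, at least 74.9-fold higher in iWAT, with one iWAT library far above the others (adjusted p = 0.0444). Its adjusted p was 0.0867 without eWAT replicate 1, 0.0663 without eWAT replicate 3, 0.149 without iWAT replicate 3, 0.128 with no filter on low counts and 0.0981 when tested against a fold change of 1.5, with log2 estimates of -9.46 to -9.16 in these fits. Rpl39l had 7.35, 8.03 and 11.7 CPM in iWAT and 0.177, 0.273 and 0.0583 CPM in eWAT, but it is a near-identical copy of Rpl39, and how the counting split reads between the copies was not examined.

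Hox genes were mostly lower in eWAT. Of 39 genes, 27 were tested, 17 were called lower (15.8% of all genes were) and 0 higher at this threshold in edgeR, and 21 had all eWAT libraries below all iWAT libraries (29.7% of all genes did). The remaining 12 had too few counts to test, among them 6 with 0 counts in all libraries. With scaling by total counts 12 were called lower, and Hoxa6, Hoxb2, Hoxb3, Hoxb6 and Hoxd4 lost their calls. Without iWAT replicate 1, 14 were called lower. The call of Hoxb2 was lost at adjusted p = 0.0557 to 0.115 when any library but eWAT replicate 1 was left out. That of Hoxb6 was lost at 0.0823 without eWAT replicate 1 and 0.0964 without iWAT replicate 2. Hoxa5 was called higher with total counts and without eWAT replicate 2 (log2 fold change 0.63 and 0.67), and Hoxc4 without iWAT replicate 1 (0.62). The differences were widest at the later positions of the Hoxa and Hoxc clusters. Over paralogues 1 to 8, 21 genes were tested, 11 were called lower, and the median log2 fold change was -0.64, within a range of -1.46 to 0.49. Over paralogues 9 to 13, 6 were tested, all of them paralogues 9 or 10, all 6 were lower, and the median was -3.51, within a range of -6.91 to -1.16. No gene lay near that median. Hoxa9, Hoxa10 and Hoxc10 were at -6.91 to -5.24, and Hoxb9, Hoxc9 and Hoxd9 at -1.78 to -1.16.

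In the Hoxa and Hoxc clusters the last genes read in iWAT were nearly absent from eWAT. In the Hoxa cluster, Hoxa7 had 6.43, 5.14 and 5.19 CPM in eWAT and 10.7, 9.26 and 9.296 CPM in iWAT (-0.805 on the log2 scale), whereas its neighbour Hoxa9 (-5.24) and Hoxa10 were nearly absent from eWAT. Hoxa5 was the gene with the largest estimate in favour of eWAT, at 9.98, 7.98 and 14.6 CPM in eWAT and 8.65, 6.99 and 7.57 CPM in iWAT, and did not pass the test (adjusted p = 0.0918). In the Hoxc cluster, Hoxc8 had 39.2, 37.7 and 43.4 CPM in eWAT and 83.4, 97.2 and 66.4 CPM in iWAT, Hoxc9 had 3.601, 1.59 and 3.91 CPM in eWAT and 13.02, 11.1 and 7.08 CPM in iWAT, and Hoxc10 followed with the values above. In the Hoxb cluster, Hoxb8 (-1.46) and Hoxb9 (-1.16) were lower in eWAT, the latter not without iWAT replicate 1 (adjusted p = 0.0545). In the Hoxd cluster, Hoxd8 had 17.9, 16.7 and 18.4 CPM in eWAT and 22.4, 17.4 and 23.1 CPM in iWAT and did not pass the test, Hoxd9 had 3.01, 2.41 and 3.38 CPM in eWAT and 7.61, 5.89 and 8.62 CPM in iWAT, and Hoxd10 was too low to test, at 12, 6 and 20 counts in iWAT and 2, 1 and 2 counts in eWAT. Hoxa11 and Hoxc11 were read in iWAT replicate 3 alone, with 4 and 6 counts.

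**Figure D3:**
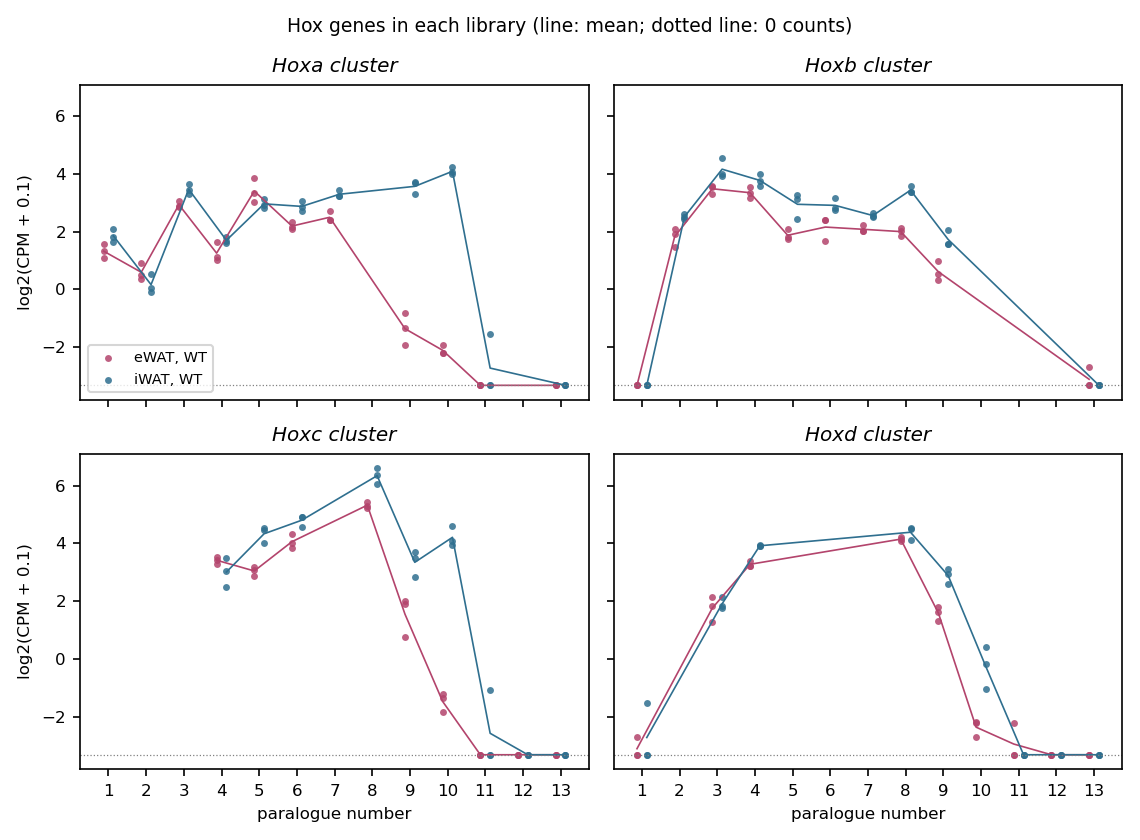
Level of the 39 Hox genes as log2(CPM + 0.1) in each WT library against the paralogue number, with 1 panel per cluster, lines through the group means of the genes present and a dotted line at 0 counts. Up to paralogue 8 the tested genes differ by at most 1.46 on the log2 scale, and at paralogues 9 and 10 the depots part most widely in the Hoxa and Hoxc clusters.

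Among other transcription factors of development, each depot had its own set. Of 38 tested, 14 were higher in eWAT and 13 lower, against 17.0% and 15.8% of all genes, with a median of 0.17. On the eWAT side stood Bnc1, Tcf21, Gata5, Wt1 and Isl1 from above, Tbx4, the hindlimb and lung T-box factor, with 18, 12 and 19 counts in eWAT and 0, 0 and 0 counts in iWAT (at least 14.7-fold higher), and Hand2, with 54 counts against 1 (ratio 48.5, counting interval 8.35 to 1950). Gata6, Osr1, Foxp2 and Meis1 were also higher, at 2.01-fold, 2.85-fold, 5.12-fold and 2.25-fold. On the iWAT side stood Tbx15, Shox2, Irx1, Irx2 and Tbx5, together with En1, a homeobox factor of the ventral body wall and limb, at 4.75, 3.56 and 4.68 CPM in iWAT and 0.472, 0.273 and 0.35 CPM in eWAT (log2 fold change -3.55, SE 0.37, adjusted p = 1.56e-05), and Lhx8, a LIM homeobox factor, at 5.92, 3.95 and 9.05 CPM in iWAT and 0.059, 0.711 and 0 CPM in eWAT. Twist1 (-0.88) and Twist2 (-1.35) were lower in eWAT by less, and were read in both depots. Nr2f2, Meis2, Tbx18, Prrx1 and Msx1 had estimates between -0.29 and 0.39 and were not called.

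Genes of the mature adipocyte were lower in eWAT. Of 25 adipocyte identity genes tested, 23 were called lower and 0 higher in edgeR, with a median log2 fold change of -1.34. Adipoq, which encodes adiponectin, had 1018, 1089.6 and 864 CPM in eWAT and 2891, 2765 and 2493 CPM in iWAT (log2 fold change -1.46, SE 0.11, adjusted p = 1.63e-06). Plin1, the perilipin that coats the lipid droplet, had 621, 626 and 635 CPM in eWAT and 1760.5, 2118 and 2082 CPM in iWAT (log2 fold change -1.66, SE 0.10, adjusted p = 3.68e-07). The depots did not overlap for either gene. Pparg, the master regulator of adipogenesis, had 116, 123 and 109.9 CPM in eWAT and 207, 237 and 220.3 CPM in iWAT, a 1.902-fold difference, and Cebpa had 472, 506 and 468 CPM in eWAT and 1041, 1214 and 1072 CPM in iWAT. The largest differences were those of Retn, resistin, with 68.3, 96.2 and 49.2 CPM in eWAT and 555, 485 and 439 CPM in iWAT (log2 fold change -2.79, SE 0.25, adjusted p = 1.59e-04), and Cfd, adipsin, with 146, 196 and 153 CPM in eWAT and 901, 1194 and 1078 CPM in iWAT (log2 fold change -2.68, SE 0.14, adjusted p = 3.68e-07). Of the pair not called, Lpl had 11994, 11371 and 11619 CPM in eWAT and 16841, 16161 and 15024 CPM in iWAT, all eWAT libraries below all iWAT libraries, at a fold change under the threshold (log2 fold change -0.46, SE 0.10, adjusted p = 0.003). Cd36 had 6783, 5579 and 6337 CPM in eWAT and 7054, 6333 and 7371 CPM in iWAT, and its depots overlapped. Both are also expressed in endothelial cells or macrophages. The adipocyte genes were lower where macrophage genes were higher, with the macrophage list at 10170 to 12990 CPM in eWAT and 3279 to 3846 CPM in iWAT and 19 of its 27 genes called, and the part of that shift in the adipocyte and metabolic lists below was not tested.

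Genes for secreted products of fat followed mostly the same direction. Of 27 adipokines tested, 14 were lower and 4 higher in eWAT, with a median of -0.84, and 4 of the 14 (Retn, Cfd, Adipoq and Lep) are also adipocyte identity genes. Lep, leptin, had 1571, 1333 and 1608 CPM in eWAT and 3693, 3259 and 3877 CPM in iWAT (log2 fold change -1.26, SE 0.11, adjusted p = 4.14e-06), with every iWAT library above every eWAT library. Rbp4, retinol binding protein, was 2.94-fold lower in eWAT, Nrg4, a neuregulin, 2.85-fold, and Sfrp5, a secreted Wnt inhibitor, 3.200-fold. Angptl4, which inhibits lipoprotein lipase, had 553, 379.8 and 482 CPM in eWAT and 1012, 606 and 924 CPM in iWAT (adjusted p = 0.0141). The 4 called higher were Fbn1, the source of asprosin, at 3.77-fold, Lcn2 at 2.903-fold, Agt, angiotensinogen, at 2.52-fold and Metrnl at 2.504-fold. Apoe and Nampt had estimates of 0.05 and 0.02. The calls of Agt and Angptl4 were lost when single libraries were left out, at adjusted p = 0.0539 without eWAT replicate 1 and 0.0848 without iWAT replicate 1 for Agt and 0.0603 without iWAT replicate 3 for Angptl4. Among the 14 lower, Fgf21, Npnt and Apln also lost their calls without iWAT replicate 1 (adjusted p = 0.112, 0.0966 and 0.0707), which left 11. Without eWAT replicate 3, Fgf21 (0.0719) and Npnt (0.0669) were not called, which left 12. Fgf21 was also lost without eWAT replicate 1 (0.0537) or iWAT replicate 3 (0.0511).

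Genes for enzymes that make fatty acids were lower in eWAT. Of 19 genes of de novo lipogenesis tested, 14 were lower and 1 higher, with a median of -1.15. Scd1 had 14276, 11437 and 10673 CPM in eWAT and 41911, 46243 and 43303 CPM in iWAT, a difference of 3.61-fold (log2 fold change -1.85, SE 0.13, adjusted p = 1.07e-06), and its paralogues share sequence with it. Fasn, fatty acid synthase, had 867, 910.5 and 833 CPM in eWAT and 2126, 2456 and 1679 CPM in iWAT (log2 fold change -1.26, SE 0.13, adjusted p = 1.34e-05). Acaca (-1.15), Acacb (-1.36), Me1 (-1.41) and Mlxipl, the carbohydrate-responsive factor ChREBP (-1.09), moved likewise, and Acly had 191, 189.8 and 174 CPM in eWAT and 239, 264 and 215 CPM in iWAT and was not called. The one gene called higher was Fads1, a desaturase of polyunsaturated fatty acids, with 98.5, 89.3 and 102 CPM in eWAT and 41.1, 45.96 and 48.3 CPM in iWAT (log2 fold change 1.097, SE 0.09, adjusted p = 3.49e-06). For uptake and triglyceride synthesis, 16 of 24 genes tested were lower and 0 higher, with a median of -1.01, although Lpin2 was called higher without eWAT replicate 1, eWAT replicate 3 or iWAT replicate 2 (log2 fold change 0.61 to 0.68). They included Pck1, which feeds glycerol synthesis (-1.73), Agpat2 (-1.69), Dgat1 (-1.26), Dgat2 (-1.33) and Fabp4, the adipocyte fatty acid binding protein, with 6242, 4823 and 5134 CPM in eWAT and 14805, 11414 and 12912 CPM in iWAT. Of the genes tested here, Lpl, Cd36, Fabp4, Acsl1, Dgat1, Dgat2, Aqp7, Pck1 and Gpd1 are also adipocyte identity genes, so that the lists are not independent.

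Genes of lipolysis were lower in eWAT as well. Of 25 genes tested for lipolysis and lipid droplet proteins, 16 were lower and 1 higher, with a median of -1.27. Among the 16, Pnpla2, Lipe, Plin1, Plin4, Cidec and Adrb3 are also adipocyte identity genes, so that they were counted above already. Pnpla2 (chr7:141455188-141460743, plus strand) had 1018, 894 and 1147 CPM in eWAT and 3276, 2693 and 3086 CPM in iWAT, which is 2.96-fold lower in eWAT (log2 fold change -1.57, SE 0.12, adjusted p = 1.51e-06). The lowest iWAT library was well above the highest eWAT library. Lipe, the hormone-sensitive lipase that takes the second fatty acid, had 740.5, 717 and 770.01 CPM in eWAT and 2227, 2586 and 2422 CPM in iWAT (log2 fold change -1.700, SE 0.10, adjusted p = 2.76e-07). Abhd5, the coactivator of ATGL, was 1.86-fold lower, and G0s2, its inhibitor, 2.55-fold lower. Of the receptors that govern lipolysis, Adrb3 (-1.08), Adora1 (-1.61) and Hcar2 (-1.51) were lower. Plin2, the lipid droplet protein that is also abundant in lipid-laden macrophages, was the one gene called higher, with 1791, 1346 and 1639.6 CPM in eWAT and 1005, 866 and 1096 CPM in iWAT (log2 fold change 0.69, SE 0.13, adjusted p = 8.42e-04). It fell under the fold threshold without eWAT replicate 1 (log2 fold change 0.58), and was not called when tested against a fold change of 1.5.

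Casp6, the gene that the study deleted elsewhere, had 19.01, 23.1 and 19.3 CPM in eWAT and 22.3, 21.9 and 17.8 CPM in iWAT in these WT libraries (log2 fold change -0.01, SE 0.13, adjusted p = 0.949), and its depots overlapped. Of 18 caspases and genes around AMPK, PPARγ, SP1 and ATGL tested, 2 were higher in eWAT and 3 lower, against 17.0% and 15.8% of all genes, with a median of -0.05. The inflammatory caspases Casp1 (59.4, 75.9 and 52.5 CPM in eWAT and 25.4, 30.4 and 26.8 CPM in iWAT) and Casp4 (22.1, 35.7 and 24.02 CPM in eWAT and 12.9, 17.7 and 12.01 CPM in iWAT) were the 2 called higher. Besides Pnpla2 and Pparg, Prkaa2, a catalytic subunit of AMPK, was lower, at 5.96, 7.22 and 4.199 CPM in eWAT and 9.24, 16.2 and 15.9 CPM in iWAT, while Prkaa1 had an estimate of -0.19. Sp1 (0.39) and Casp8 (0.31) were estimated higher in eWAT at adjusted p-values of 0.00317 and 0.0174, and stayed under the fold threshold. Without eWAT replicate 1, 4 genes of the list were called higher.

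Genes of several mitochondrial pathways were lower in eWAT. Of 26 genes of fatty acid oxidation, 20 were lower and 0 higher, with a median of -0.88 and a range that opened at Hadh (-1.25). Acadm, the medium-chain dehydrogenase, had 329, 266 and 305 CPM in eWAT and 622, 539 and 643 CPM in iWAT (log2 fold change -1.002, SE 0.11, adjusted p = 1.49e-05). Cpt1a, which admits fatty acids to the mitochondrion, had 284, 290.2 and 279.9 CPM in eWAT and 222, 217 and 229 CPM in iWAT, with eWAT estimated higher, and was not called. Of 25 genes of branched-chain amino acid catabolism, 20 were lower and 0 higher, with a median of -1.08. Bckdha, a subunit of the dehydrogenase that commits these amino acids to breakdown, had 87.3, 88.3 and 85.3 CPM in eWAT and 224, 206 and 204 CPM in iWAT (log2 fold change -1.28, SE 0.08, adjusted p = 4.62e-07), and Bcat1, the cytosolic aminotransferase, was 3.797-fold lower. The respiratory chain showed smaller differences. Of 78 genes tested, 25 were lower and 1 (Cox6b2) higher, with a median of -0.49, although 64 had all eWAT libraries below all iWAT libraries (29.7% of all genes did). Sdha of complex II had 273, 292 and 255 CPM in eWAT and 508, 505 and 532 CPM in iWAT and Atp5b of ATP synthase 876, 876 and 849 CPM in eWAT and 1635, 1464 and 1586 CPM in iWAT. With scaling by total counts, 14 of the 78 were called lower.

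More thermogenic genes were lower than higher in eWAT. Of 18 tested, 10 were lower and 3 higher, with a median of -0.71. Ucp1, the uncoupling protein of brown and beige adipocytes, had 51, 37 and 23 counts in iWAT and 9, 19 and 3 counts in eWAT (log2 fold change -2.002, SE 0.56, adjusted p = 0.0118). The groups did not overlap, and without iWAT replicate 1 the adjusted p was 0.0539. Cidea had 13.02, 13.3 and 7.51 CPM in iWAT and 1.77, 1.86 and 1.52 CPM in eWAT (log2 fold change -2.71, SE 0.27, adjusted p = 9.76e-06), Cox8b had 25.2, 18.3 and 16.3 CPM in iWAT and 6.14, 9.84 and 5.01 CPM in eWAT, and Prdm16, a regulator of beige fate, was 2.98-fold lower in eWAT. Ppargc1a was 1.65-fold lower. The 3 called higher in eWAT were Acot11 (1.88), Tmem26 (1.55) and Dio2 (1.302), the last pair at mean levels of at most 2.01 CPM. Only 1 of the 3 was called without eWAT replicate 3, iWAT replicate 1 or iWAT replicate 3, when tested against 1.5 or with at least 10 counts in every library. The call of Ppargc1a was also lost, at adjusted p = 0.0554 to 0.114 without each of eWAT replicate 1, eWAT replicate 3, iWAT replicate 1 and iWAT replicate 2 in turn. Cox7a1 and Letmd1 had estimates of -0.14 and 0.11.

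Genes of insulin signalling and glucose use gave 15 lower and 1 higher of 31 genes tested, with a median of -0.57. Irs1 (-1.02), Irs2 (-0.83), Insr (-0.75) and Akt2 (-1.13) were lower in eWAT, and Akt1 was estimated higher without reaching the fold threshold (0.53). Grb14, an inhibitor of the insulin receptor, was lower by most, at 27.04, 22.1 and 31.5 CPM in eWAT and 149, 130.3 and 106 CPM in iWAT (log2 fold change -2.25, SE 0.16, adjusted p = 3.71e-06). Socs3, a feedback inhibitor of cytokine and insulin signalling, was the one gene called higher, with 15.5, 24.7 and 17.96 CPM in eWAT and 8.59, 10.1 and 5.79 CPM in iWAT (log2 fold change 1.25, SE 0.23, adjusted p = 0.00139). Slc2a1 was called higher as well without iWAT replicate 1, and Igf1 without iWAT replicate 2. In cholesterol synthesis 9 of 22 genes were lower and 2 higher, with a median of -0.45. Hmgcs1 was 1.899-fold lower, whereas Srebf2, the regulator of the pathway, was 1.62-fold higher, and Fdft1, which overlaps Ctsb on the opposite strand, 1.703-fold. Retinoid genes gave 10 lower and 4 higher of 19, with a median of -0.77. Among the 4 that were higher were Aldh1a2, Aldh1a3 (1.96) and Dhrs9 (2.23), and among the lower were Rbp4, Adh1 (-1.02), Rxra (-0.93) and Adh7 (-4.296). Of 13 steroid genes, Hsd11b1, which regenerates glucocorticoid, was lower (48.9, 44.1 and 39.1 CPM in eWAT and 129, 98.7 and 181 CPM in iWAT) with Nr3c2 (-0.75) and Akr1c14 (-0.65), and Star was higher (1.596). The list thus gave 3 lower and 1 higher, against 15.8% and 17.0% of all genes, with a median of -0.24, and Nr3c1 was not called. The call of Akr1c14 was lost at adjusted p = 0.0554 to 0.127 without each of eWAT replicate 1, eWAT replicate 2, iWAT replicate 1, iWAT replicate 2 and iWAT replicate 3 in turn. Of 18 clock genes, 5 were lower (15.8% of all genes were), among them Cry2, Nr1d1, Cry1 and Rora, and Npas2 was higher (2.02), with a median of -0.15. Rora fell under the fold threshold without iWAT replicate 2 (-0.53), and Nfil3 was called higher without eWAT replicate 3. Dbp, Per1 and Arntl, whose levels swing with the time of day, had estimates of -0.24, -0.24 and 0.57 and were not called.

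Macrophage genes were higher in eWAT. Of 27 tested, 19 were called higher and 1 lower, with a median log2 fold change of 1.65. Adgre1, which encodes F4/80, had 578, 757 and 659 CPM in eWAT and 124, 140.1 and 168 CPM in iWAT (log2 fold change 2.21, SE 0.14, adjusted p = 7.27e-07). Cd68, a lysosomal macrophage marker, had 1009, 879.8 and 955 CPM in eWAT and 286, 229 and 297 CPM in iWAT (log2 fold change 1.81, SE 0.11, adjusted p = 4.65e-07), and Csf1r, the receptor that sustains macrophages, 809, 944 and 782 CPM in eWAT and 256, 266 and 283 CPM in iWAT. For these genes every eWAT library was at least 2 times the highest iWAT library. Genes known from perivascular, resident macrophages behaved differently from one another. Folr2 (1.83), Mrc1 (1.41) and Timd4 (1.26) were higher in eWAT, Lyve1 (0.11), Cd163 (0.297), F13a1 (0.05) and Clec10a (0.41) were not called, and Cbr2 was lower (-0.66). Cbr2 fell under the fold threshold without eWAT replicate 2 (-0.52), and the call of Timd4 was lost at adjusted p = 0.0563 to 0.222 without each of eWAT replicate 2, eWAT replicate 3, iWAT replicate 1, iWAT replicate 2 and iWAT replicate 3 in turn.

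Genes of lipid-associated macrophages, the cells that take up lipid around dying adipocytes, were higher in eWAT for 16 of 22 tested and lower for 1, with a median of 1.55. Trem2, their lipid receptor, had 489, 417 and 445 CPM in eWAT and 111, 86.7 and 119 CPM in iWAT (log2 fold change 2.09, SE 0.12, adjusted p = 3.99e-07). Itgax, which encodes CD11c, had 526, 414 and 444 CPM in eWAT and 102, 91.98 and 101 CPM in iWAT (log2 fold change 2.23, SE 0.11, adjusted p = 1.59e-07), and Gpnmb had 3168, 1751 and 2838 CPM in eWAT and 685, 459.9 and 639 CPM in iWAT (log2 fold change 2.12, SE 0.26, adjusted p = 5.40e-04). Spp1, osteopontin, differed most in the list and varied most within eWAT, with 211, 83.1 and 156 CPM in eWAT and 22.2, 10.03 and 15.1 CPM in iWAT (log2 fold change 3.25, SE 0.51, adjusted p = 0.00584). The lysosomal proteases Ctss (1.804), Ctsk (1.47) and Ctsb (0.73) were called, and Ctsd (0.52) and Ctsl (0.36) were not. Acp5, the tartrate-resistant acid phosphatase, was lower in eWAT, with 194, 187 and 193 CPM in eWAT and 457, 444 and 403 CPM in iWAT (log2 fold change -1.19, SE 0.08, adjusted p = 8.91e-07). Adipocytes express several members of this list, among them Lgals1, Fabp5 and Apoe, and these had estimates of -0.33, -0.06 and 0.05.

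Chemokine and receptor genes gave 19 higher and 4 lower of 41 genes tested, with a median of 1.18. Ccl3 (14.2, 11.97 and 11.3 CPM in eWAT and 1.89, 2.14 and 2.28 CPM in iWAT) and Ccl4 (5.195, 6.34 and 5.19 CPM in eWAT and 0.781, 1.49 and 1.48 CPM in iWAT), made by activated macrophages, were higher in eWAT, as was Cxcl16 (1.84). Ccl2, the monocyte attractant MCP-1, differed less, with 20.96, 18.97 and 18.3 CPM in eWAT and 13.4, 9.26 and 13.7 CPM in iWAT (log2 fold change 0.68, SE 0.16, adjusted p = 0.00445). The chemokine receptors Ccr2 (1.51) and Cx3cr1 (2.54) were higher too. The 4 lower in eWAT were Cxcl12, the stromal factor that retains haematopoietic cells (120.3, 104 and 138 CPM in eWAT and 258, 202 and 239 CPM in iWAT), Ccl24 (-0.79) and the decoy receptors Ackr1 (-0.61) and Ackr4 (-0.82). Without eWAT replicate 1, 2 of the 4 were called, and the calls of Ackr1 and Ccl24 were lost at adjusted p = 0.0933 without eWAT replicate 1, 0.0661 without eWAT replicate 3 and 0.131 without iWAT replicate 1 for Ackr1 and 0.0839 without eWAT replicate 1, 0.0509 without iWAT replicate 2 and 0.0803 without iWAT replicate 3 for Ccl24. Ccr2 was not called at 0.108 without iWAT replicate 1, 0.0734 without iWAT replicate 2 and 0.103 without iWAT replicate 3, and Ccl2 fell under the fold threshold without iWAT replicate 2 (0.51). Complement genes gave 16 higher and 4 lower of 26, with a median of 0.84. C3, the hub of the cascade, had 3035, 3771 and 2629 CPM in eWAT and 608, 835 and 832 CPM in iWAT (log2 fold change 2.05, SE 0.17, adjusted p = 5.72e-06), and the 3 chains of C1q were 3.36-fold, 3.62-fold and 3.68-fold higher. Opposite to these stood Cfd, Cd59a (-1.396), C1rl (-1.02) and C6 (-0.94). Of 25 interferon-induced genes, 3 were higher and 2 lower, against 17.0% and 15.8% of all genes, with a median of 0.13. Without eWAT replicate 2, in which the list summed to 2406 CPM against 1382 and 1397 CPM in the other eWAT libraries, 5 were lower, with Gbp2, Gbp3 and Rsad2 added. Of the 2 lower, Ifi27l2a had 422, 398 and 319.8 CPM in eWAT and 1350.2, 1346 and 1123 CPM in iWAT (log2 fold change -1.74, SE 0.12, adjusted p = 9.37e-07), and the other was Ifi27. Oas1a, Oasl1 and Oasl2 were the 3 that were higher.

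Lymphocyte genes were higher in eWAT, with wide differences between libraries. The summed level of the B cell list was 106.5, 514 and 612 CPM in eWAT and 23.8, 77.6 and 40.3 CPM in iWAT. Of 14 B cell genes tested, 9 were called higher and 0 lower, with a median of 3.05. Ms4a1, which encodes CD20, had 2.77, 14.1 and 35.2 CPM in eWAT and 0.195, 0.842 and 0.616 CPM in iWAT (log2 fold change 4.95, SE 1.28, adjusted p = 0.0309). For this gene, as for the sum of the list, eWAT replicate 1 was the lowest eWAT library. The number of B cell genes called was 14 without eWAT replicate 1, 5 without eWAT replicate 2, 1 without iWAT replicate 1, 3 without iWAT replicate 2 and 1 without iWAT replicate 3. Of 22 genes of T and NK cells, 13 were higher and 0 lower, with a median of 1.94, and 8, 7 and 6 were called without eWAT replicate 2, iWAT replicate 1 and iWAT replicate 3. Cd3e, of the T cell receptor complex, had 4.66, 19.03 and 11.4 CPM in eWAT and 1.302, 4.21 and 2.34 CPM in iWAT (log2 fold change 2.16, SE 0.63, adjusted p = 0.0303). Cd4 (2.08), Cd8b1 (1.93), Icos (1.97) and Ctla4 (2.42) were called. Left-out libraries ended the calls of Cd3e at adjusted p = 0.0605 without eWAT replicate 3, 0.0957 without iWAT replicate 1 and 0.119 without iWAT replicate 3, of Cd4 at 0.103 without iWAT replicate 1 and 0.119 without iWAT replicate 3, of Ctla4 at 0.113 without eWAT replicate 2, 0.076 without iWAT replicate 1 and 0.0708 without iWAT replicate 2, of Ms4a1 at 0.0501 to 0.108 without each of eWAT replicate 2, iWAT replicate 1, iWAT replicate 2 and iWAT replicate 3 in turn and of Prf1 at 0.0926 without eWAT replicate 2, 0.0664 without eWAT replicate 3 and 0.0772 without iWAT replicate 3. Of the cytotoxic genes, Prf1 was called (1.74) and Gzma (0.97), Gzmb (1.55) and Nkg7 (1.74) were not.

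Lymph nodes lie within iWAT and lymphoid clusters occur in visceral fat, and genes of lymph node stroma were examined beside the lymphocytes. Of 5 tested, Ccl21a and Chst4 were higher in eWAT and Enpp2, which adipocytes also express, was lower. Chst4 had 76, 57 and 24 counts in eWAT and 0, 0 and 0 counts in iWAT. Its lowest eWAT library was replicate 3, and the cells that its reads came from were not tested. Ccl21a had 108, 227 and 106 counts in eWAT and 14, 3 and 0 counts in iWAT (log2 fold change 4.49, SE 0.78, adjusted p = 0.00243), and it has near-identical copies, so that its count is uncertain. Cxcl13, the attractant of B cells, had 86, 137 and 847 counts in eWAT and 48, 61 and 127 counts in iWAT and did not pass the test. The part of lymphoid tissue in the B and T cell differences was not tested. MHC class II genes, which present antigen on macrophages, dendritic cells and B cells, were highest in one library. The summed level of 10 genes was 4337, 13500 and 5361 CPM in eWAT and 1911, 3293 and 2375 CPM in iWAT, with eWAT replicate 2 far above all others. Of the 10 genes, 3 (H2-Ob, H2-Oa and H2-Eb2) were called higher. All eWAT libraries lay above all iWAT libraries for 9 of them (30.8% of all genes did so), and the median was 1.69. Cd74, the invariant chain, had 1865, 5357 and 2339 CPM in eWAT and 836, 1401 and 1045 CPM in iWAT (adjusted p = 0.0569). Without eWAT replicate 2, 8 of the genes were called, and without iWAT replicate 1 or iWAT replicate 3, 1 was. With the replicate number as a block, all 10 were called.

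Mast cell genes were higher in eWAT in a tighter pattern. Of 10, 9 were higher and 0 lower, with a median of 2.44. Cpa3, mast cell carboxypeptidase, had 72.3, 65.5 and 47.6 CPM in eWAT and 10.5, 8.16 and 8.06 CPM in iWAT (log2 fold change 2.796, SE 0.18, adjusted p = 1.21e-06). Tpsb2, a tryptase, had 100.1, 82.8 and 66.5 CPM in eWAT and 15.9, 15.99 and 13.97 CPM in iWAT, and Fcer1a, the IgE receptor chain, 10.04, 10.99 and 6.12 CPM in eWAT and 0.586, 0.259 and 0.431 CPM in iWAT. Kit, which other cells share, had an estimate of 0.25 and was not called. The call of Hdc was lost at adjusted p = 0.0762 to 0.105 without each of eWAT replicate 1, eWAT replicate 2, iWAT replicate 2 and iWAT replicate 3 in turn. Cell cycle genes, too, were higher in eWAT, for 26 of 28 tested, with a median of 1.39. Mki67 had 91.6, 104 and 88.9 CPM in eWAT and 24.7, 25.96 and 22.7 CPM in iWAT (log2 fold change 1.95, SE 0.10, adjusted p = 1.83e-07), Top2a had 50.7, 64.5 and 58.5 CPM in eWAT and 15.4, 15.9 and 15.3 CPM in iWAT (log2 fold change 1.896, SE 0.11, adjusted p = 3.42e-07), and the replication helicase genes Mcm2, Mcm3, Mcm5 and Mcm6 were 2.54-fold to 3.28-fold higher. Those not called were Cdk1 (0.15) and Kif20a (0.48). Immediate early genes, which respond to handling as well as to signals, gave 5 higher (Atf3, Egr2, Nr4a3, Fos and Junb) and 1 lower (Nr4a2) of 20, against 17.0% and 15.8% of all genes, with a median of 0.01. Btg2 was called lower as well without iWAT replicate 2, and Fosb without iWAT replicate 3. Atf3 had 313, 238 and 274 CPM in eWAT and 65.7, 55.02 and 78.00 CPM in iWAT (log2 fold change 2.05, SE 0.14, adjusted p = 2.20e-06), while Egr1, Jun and Ier2 had estimates of -0.09, 0.14 and -0.13.

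**Figure D4:**
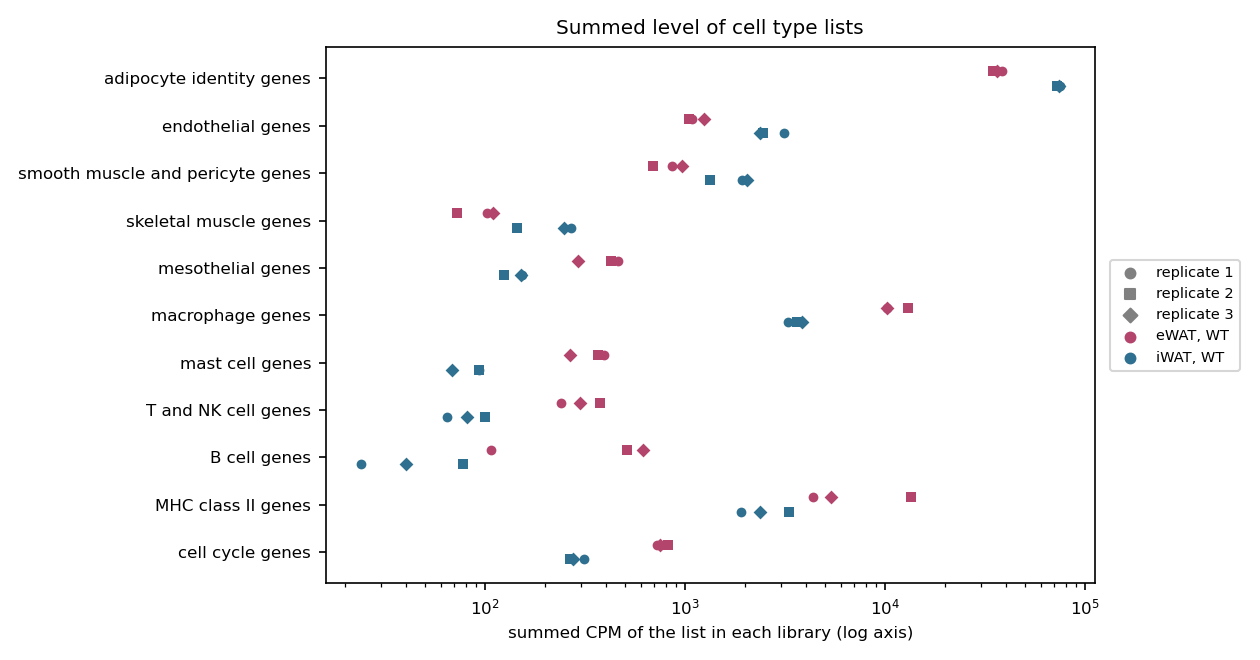
Summed CPM of 11 gene lists in each of the 6 WT libraries, on a log axis, with colour for the depot and shape for the replicate number. The adipocyte, endothelial, mural and skeletal muscle lists lie higher in iWAT and the other 7 lists higher in eWAT, with eWAT replicate 1 lowest for B cells and eWAT replicate 2 highest for MHC class II.

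Genes of the extracellular matrix differed in both directions. Among collagens, 9 of 31 tested were higher in eWAT and 7 lower, against 17.0% and 15.8% of all genes, with a median of 0.09. The abundant fibrillar collagens were not called, as Col1a1 (0.09), Col1a2 (0.37) and Col3a1 (0.41) show. Collagen VI split by chain, with Col6a5, Col6a6 (25.3, 35.3 and 25.7 CPM in eWAT and 0.976, 1.23 and 2.89 CPM in iWAT), Col6a4 (3.36) and Col6a1 (0.64) higher and Col6a3 at 0.05. Collagen IV of basement membranes split as well. Col4a1 (1740.3, 1612 and 1576 CPM in eWAT and 2456, 2638 and 2462 CPM in iWAT) and Col4a2 (-0.66) were lower in eWAT, and Col4a5 (47.1, 32.04 and 36.9 CPM in eWAT and 11.8, 12.9 and 12.6 CPM in iWAT) and Col4a6 (10.7, 9.19 and 8.05 CPM in eWAT and 0.586, 0.129 and 0.185 CPM in iWAT) were higher. With scaling by total counts 2 collagens were called lower in place of 7. Col6a1 fell under the fold threshold without eWAT replicate 1 (0.57) and Col4a1 without iWAT replicate 2 (-0.58). Proteoglycans and matricellular proteins gave 17 higher and 6 lower of 37, with a median of 0.64. Fn1, fibronectin, had 1709.5, 1409 and 1474 CPM in eWAT and 383, 333 and 371 CPM in iWAT (log2 fold change 2.08, SE 0.11, adjusted p = 1.99e-07), Dcn, decorin, had 2091, 2126 and 1819.6 CPM in eWAT and 729, 699 and 724 CPM in iWAT (log2 fold change 1.49, SE 0.10, adjusted p = 5.16e-07), and Fbln1 was 6.24-fold higher. Sparc (4548, 3596 and 4376 CPM in eWAT and 8750.2, 7833 and 8434 CPM in iWAT), Prelp (-1.38) and Tnc (-1.35) were lower.

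Matrix proteases and their inhibitors gave 14 higher and 11 lower of 38, with a median of -0.08, which lies within the 0.139 shift that the scaling can give. Mmp12, the elastase of macrophages, had 1471, 787 and 1165 CPM in eWAT and 264, 206 and 255 CPM in iWAT (log2 fold change 2.24, SE 0.23, adjusted p = 1.92e-04). Timp1 (2.68) and Timp2 (1.32) were higher, and Timp3 (-0.69) and Timp4 (-1.62) were lower. Lox, which crosslinks collagen, was 2.54-fold lower, while Loxl2 and Loxl3 were 1.84-fold and 1.61-fold higher. Timp3 fell under the fold threshold without iWAT replicate 3 (-0.57) and Loxl3 without iWAT replicate 2 (0.54). Of 21 genes of adipocyte progenitors, 7 were higher and 2 lower, against 17.0% and 15.8% of all genes, with a median of 0.08. Pdgfra, the general progenitor marker, had 163, 151 and 158 CPM in eWAT and 49.8, 48.2 and 61.6 CPM in iWAT (log2 fold change 1.56, SE 0.10, adjusted p = 6.67e-07), and Dpp4, of the early progenitor pool, had 44.4, 47.9 and 35.2 CPM in eWAT and 13.7, 20.8 and 18.5 CPM in iWAT. Pi16, of the same pool, had an estimate of -0.12, and Cd34 and Ly6a had 0.21 and -0.04. Zfp423, which commits progenitors to white fat, was 2.398-fold lower, with Ly6c1 (-0.81).

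Among Wnt pathway genes, 9 of 36 tested were higher and 13 lower, with a median of -0.26. Ligands and enhancers were found on both sides. Wnt2b (17.4, 21.4 and 16.97 CPM in eWAT and 1.497, 2.201 and 1.54 CPM in iWAT) and Rspo1 (19.9, 23.02 and 16.97 CPM in eWAT and 2.41, 0.712 and 0.862 CPM in iWAT) were higher in eWAT, and Wnt5a (-1.05) and Wnt8b (-2.09) were lower. Of the secreted inhibitors, Sfrp1 (67.2, 81.9 and 55.05 CPM in eWAT and 10.3, 10.03 and 8.74 CPM in iWAT), Sfrp2 (2.21), Sfrp4 (1.27), Dkk3 (2.43) and Frzb (2.19) were higher, while Sfrp5 (212, 167 and 271 CPM in eWAT and 736, 562 and 781 CPM in iWAT) and Dkk2 (-1.44) were lower. The receptors split between Fzd7 (1.195) on one side and Fzd4 (162, 134 and 149 CPM in eWAT and 373, 428 and 429 CPM in iWAT), Lrp5 (-1.02) and Lgr4 (-1.01) on the other. The call of Frzb was lost at adjusted p = 0.0651 without eWAT replicate 1, 0.104 without eWAT replicate 3 and 0.111 without iWAT replicate 2, and that of Dkk2 at 0.0717 without iWAT replicate 3. Axin2, a target of the canonical pathway, had 15.8, 16.4 and 14.9 CPM in eWAT and 15.4, 21.1 and 14.9 CPM in iWAT and was not called. BMP and TGF-beta genes gave 12 higher and 11 lower of 53, against 17.0% and 15.8% of all genes, with a median of 0.08. Tgfb1 (192, 189 and 230.3 CPM in eWAT and 111, 98.1 and 106 CPM in iWAT), Tgfb2 (1.02) and their receptors Tgfbr1 (1.54) and Tgfbr2 (0.604) were higher. Bmp3 (133, 80.5 and 128 CPM in eWAT and 285, 242 and 292 CPM in iWAT), Bmp6 (-1.62) and the BMP targets Id1 (-1.24), Id3 (-0.596) and Smad6 (-1.28) were lower, and Id2 was higher (1.55). Id3 fell under the fold threshold without iWAT replicate 1 (log2 fold change -0.40). Gdf3, a ligand made by fat macrophages, was 5.28-fold higher, and Acvr1c, its receptor on adipocytes, 2.28-fold lower.

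Vascular genes were lower in eWAT. Of 18 endothelial genes tested, 15 were lower and 0 higher, with a median of -1.25. Cdh5, VE-cadherin, had 209, 207 and 239 CPM in eWAT and 665, 518 and 451 CPM in iWAT (log2 fold change -1.32, SE 0.14, adjusted p = 2.40e-05), and Gpihbp1, which holds lipoprotein lipase on capillaries, had 52.6, 57.96 and 56.1 CPM in eWAT and 197, 147 and 187 CPM in iWAT (log2 fold change -1.67, SE 0.11, adjusted p = 7.46e-07). Cldn5, a claudin of endothelial junctions, was 4.21-fold lower. Vwf (-0.55) and Plvap (-0.55) were below the fold threshold, and Prox1, of lymphatic endothelium, had an estimate of 1.04 and was called higher without iWAT replicate 1 (1.81). Of 12 genes of smooth muscle and pericytes, 8 were lower and 0 higher, with a median of -0.95. Rgs5 had 167, 159 and 211 CPM in eWAT and 476, 378 and 426 CPM in iWAT (log2 fold change -1.25, SE 0.12, adjusted p = 1.29e-05), while Acta2 had 269.7, 159 and 297 CPM in eWAT and 682, 299 and 901 CPM in iWAT and did not pass the test. Schwann cell genes were lower for 5 of 6, with a median of -2.65. Sox10, their lineage factor, had 80, 20 and 18 counts in iWAT and 2, 0 and 1 counts in eWAT, a ratio of 43.8 with a counting interval of 14.6 to 215, and S100b had 14.97, 14.9 and 9.54 CPM in iWAT and 2.36, 2.08 and 1.46 CPM in eWAT (log2 fold change -2.73, SE 0.26, adjusted p = 6.78e-06). Prx had 630, 146 and 187 counts in iWAT and 46, 55 and 65 counts in eWAT. For Sox10 and Prx, iWAT replicate 1 was above the other iWAT libraries, and 5 Schwann genes were called without it. The call of Prx was lost at adjusted p = 0.111 without eWAT replicate 1, 0.078 without eWAT replicate 2 and 0.0845 without eWAT replicate 3. Scn7a and Cdh19 were the others called, and Mbp was not.

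Skeletal muscle genes, which can come from muscle taken with a depot, gave 3 lower (Myl1, Mb and Casq1) and 1 higher (Actn3) of 10 tested, against 15.8% and 17.0% of all genes, with a median of -0.20. The sum of the list was 72.0 to 109.5 CPM in eWAT and 145 to 269.5 CPM in iWAT, and its largest part, Acta1, had 62.99, 36.6 and 74.9 CPM in eWAT and 204, 71.1 and 183 CPM in iWAT and did not pass the test. Atp2a1, Ckm, Myh1 and Myh4, defining genes of mature fibres, were among 8 that were too low to test.

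By CPM, a scale that is not corrected for transcript length, the 6 with the highest level among the genes higher in eWAT were Ctsb, Actb, Psap, Selenop, C3 and Tmsb4x. Ctsb, a lysosomal protease, had 8205, 6826 and 7925 CPM in eWAT and 4584, 4452 and 4761 CPM in iWAT, Actb had 7070.1, 7266 and 7894 CPM in eWAT and 4627, 3921 and 4558 CPM in iWAT, and Psap, the precursor of saposins, 6679, 6858 and 7375 CPM in eWAT and 3763, 3905 and 4234 CPM in iWAT. Their differences were small, at 1.66-fold, 1.696-fold and 1.76-fold. Selenop was 1.85-fold and Tmsb4x 2.56-fold higher. Actb and Tmsb4x have processed copies elsewhere in the genome, and Ctsb and Selenop overlap Fdft1 and Ccdc152 on the opposite strand. The 6 with the highest CPM among the genes lower in eWAT were Scd1, Fabp4, Gsn, Car3, Sparc and Hp. Car3, a carbonic anhydrase of the adipocyte, had 3256, 2914 and 2972 CPM in eWAT and 12560.00, 12264 and 10849 CPM in iWAT (log2 fold change -1.96, SE 0.11, adjusted p = 2.60e-07). Hp, haptoglobin, had 3919.6, 3671 and 3097 CPM in eWAT and 5861, 6732 and 6509 CPM in iWAT and Gsn, gelsolin, 6267, 5793 and 5502 CPM in eWAT and 11864, 11433 and 13165 CPM in iWAT.

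**Figure D5:**
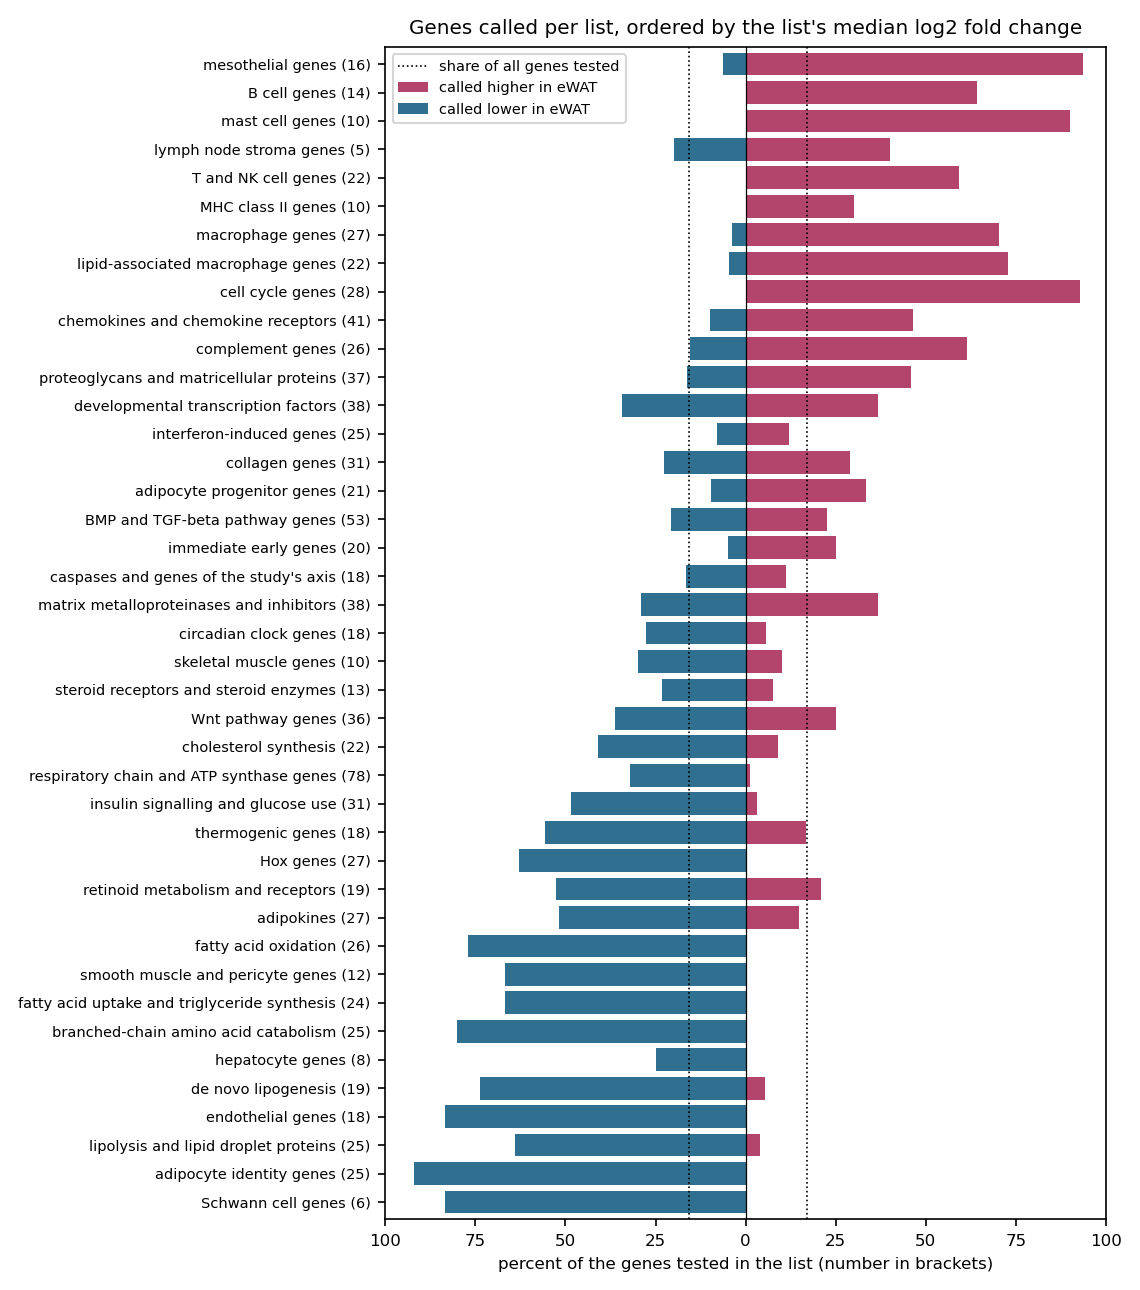
Percent of the tested genes of each list called higher (right) and lower (left) in eWAT, for the lists with at least 5 genes tested, ordered by the median log2 fold change of the list. The dotted lines stand at 17.0% and 15.8%, the shares over all 13901 genes, and mesothelial genes lie at the top and Schwann cell and adipocyte identity genes at the bottom.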

How the data were processed

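Poly(A) RNA of eWAT and iWAT was sequenced on an Illumina NextSeq. The authors aligned reads to mm10 with STAR and counted reads on exons with HOMER, with 1 transcript per gene. The deposited counts are whole numbers without normalization. Versions of these tools and the strandedness are not given in the sources used here.

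The 2 tables were joined by gene symbol, and chrY genes and genes with differing transcripts were left out, so that 96.74 to 97.17% of each library's counts remained. Genes kept by filterByExpr were tested with edgeR 4.0.16 (limma 3.58.1, R 4.3.3) on 3 eWAT against 3 iWAT libraries, with TMM normalization and robust quasi-likelihood fits, and p-values were Benjamini-Hochberg adjusted. The common biological coefficient of variation was 0.141. The fits were also run on simulated data with a common dispersion and with changes balanced in direction. That run does not cover the effect of the scaling, and its outcome is not reported here. CPM values are TMM-scaled. For principal components, a prior count of 1 was added before the log2 scale. Counting intervals are exact at 95% and, like the floor of 3 counts, cover counting error only. DESeq2 1.42.0 and other settings were alternatives. Python 3.11.15 and matplotlib 3.10.9 made the figures.

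Named genes are the 10 largest increases and the 10 largest decreases among called genes with no overlap between depots and a mean of at least 1 CPM in the higher depot (predicted symbols left out), the 6 with the highest mean CPM in each direction, list members, and members of counts of at most 5; some of these genes are not reported here. The comparison and the gene lists were chosen with earlier results of these data known. Lists were described by counts and medians, without a test of the list.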

Additional observations from a re-analysis of the deposited data

How the results depend on the processing

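No gene called by the main test was called in the opposite direction under any of the 15 alternatives run. Of the 4563 genes called, 4435 were also called by DESeq2, 4065 with scaling by total counts and 4024 to 4148 when 1 library was left out. The counts higher and lower in eWAT were 1474 and 1275 when the fold change itself was tested against 1.5, and 3586 and 3492 without a minimum fold change. Leaving out 1 library gave 2171 to 2308 higher and 2084 to 2178 lower. Tested against 1.5, 9 Hox genes, 12 respiratory chain genes, 9 insulin and glucose genes, 1 collagen, 7 matrix protease genes, 3 Schwann cell genes and 2 clock genes were called lower, and 2 B cell genes, 6 T and NK cell genes and 8 matrix protease genes higher. With at least 10 counts in every library, which removes genes that are silent in one depot, 4 developmental factors, 4 mesothelial genes and 4 B cell genes were higher and 5 developmental factors and 3 Schwann cell genes lower. Total counts gave 14 respiratory chain genes and 2 collagens lower. Without a minimum fold change, 58 respiratory chain genes were lower. DESeq2 called 15 B cell genes and 10 MHC class II genes higher and 8 Schwann cell genes lower, and no filter left 3 B cell genes; the cause was not tested. Left-out libraries moved B cell calls between 1 and 14 and T and NK cell calls between 6 and 17. The first principal component held 76.76% of the variance with a prior count of 5 and 79.03% over the 500 most variable genes. Casp6, near 0 in all fits, had a log2 fold change of 0.13 with total counts, 0.00 with at least 10 counts and -0.11 to 0.04 with 1 library left out. Deviations from the group mean correlated between same-numbered libraries of the depots at r = 0.143, 0.272 and 0.051. Differently numbered libraries gave -0.236 to 0.105, and 5 of 6 libraries correlated best with their own number. The labels do not tie a number to an animal, and the main fit was planned without a block. Whether the numbers mark pairs was not settled by these values. With the replicate number as a block, 2436 genes were higher and 2226 lower. Of the MHC class II and the T and NK cell genes, 10 and 19 were then higher, in place of 3 and 13.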

Other observations

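Some genes outside the lists differed by as much as those in them, and are given as values chosen after they were seen. Mgp, an inhibitor of calcification, had 565, 481 and 416 CPM in eWAT and 48.5, 30.5 and 46.6 CPM in iWAT (log2 fold change 3.54, SE 0.20, adjusted p = 3.95e-06). Penk, which encodes the enkephalin precursor, had 43.9, 62.7 and 42.9 CPM in eWAT and 4.62, 6.93 and 5.91 CPM in iWAT (log2 fold change 3.097, SE 0.20, adjusted p = 1.29e-06), Fndc5, the irisin precursor, had 16.5, 18.05 and 14.2 CPM in eWAT and 1.11, 1.49 and 1.05 CPM in iWAT, and Cadm1, an adhesion molecule, had 226, 237 and 208 CPM in eWAT and 31.9, 39.2 and 35.95 CPM in iWAT (log2 fold change 2.65, SE 0.10, adjusted p = 9.36e-08). Slpi, an antiprotease of epithelia, was higher in eWAT and varied widely there, with 156, 66.4 and 27.6 CPM in eWAT and 0.976, 1.55 and 0.431 CPM in iWAT. Spib, a factor of B cells and plasmacytoid dendritic cells, had 1.65, 7.27 and 23.4 CPM in eWAT and 0.26, 0.194 and 0.0616 CPM in iWAT, with eWAT replicate 1 lowest, as for the B cell list. Tnf was higher in eWAT, with 4.43, 8.75 and 7.11 CPM in eWAT and 1.04, 1.62 and 1.66 CPM in iWAT (log2 fold change 2.22, SE 0.33, adjusted p = 1.79e-04), while Il1b had 0.59, 1.48 and 1.05 CPM in eWAT and 0.521, 0.712 and 0.246 CPM in iWAT and was not called.

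Among the genes higher in iWAT were Mest, Nnat and Peg3, each known as an imprinted gene. Mest had 1847, 2108 and 1747 CPM in iWAT and 664, 571 and 606 CPM in eWAT (log2 fold change -1.63, SE 0.11, adjusted p = 5.33e-07), Nnat had 1163, 1373 and 1257 CPM in iWAT and 374, 328 and 399 CPM in eWAT (log2 fold change -1.78, SE 0.11, adjusted p = 3.68e-07), and Peg3 had 307, 472 and 415 CPM in iWAT and 174, 119 and 139 CPM in eWAT. The carboxylesterases Ces1d (878, 879 and 875 CPM in iWAT and 209.6, 189.8 and 177 CPM in eWAT) and Ces1f (-2.56) were lower in eWAT, as were the amylase Amy1 (243, 223 and 243 CPM in iWAT and 50.2, 42.05 and 47.4 CPM in eWAT) and the cytochrome Cyp2e1 (-2.09), and each of these belongs to a family of similar genes. Ret, a receptor of GDNF family ligands, had 88.7, 96.97 and 80.3 CPM in iWAT and 21.8, 18.9 and 20.2 CPM in eWAT (log2 fold change -2.13, SE 0.10, adjusted p = 1.59e-07), and Ntrk2, the receptor of BDNF, 309, 329 and 305 CPM in iWAT and 109, 100.2 and 97.4 CPM in eWAT (log2 fold change -1.62, SE 0.08, adjusted p = 2.02e-07). Klf14, known from genetic studies of fat distribution, had 30.4, 37.8 and 22.96 CPM in iWAT and 9.33, 5.14 and 7.29 CPM in eWAT (log2 fold change -2.07, SE 0.24, adjusted p = 1.34e-04). The hormone receptors Ghr (-0.95) and Tshr (-1.18) were lower in eWAT, and Prlr (1.08) and Vdr (1.29) were higher.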
